A study of Mus musculus with 16 samples.

Results

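The genes described here are 10 components of the MHC class I antigen presentation machinery: the heavy chains H2-K1 and H2-D1, their light chain B2m, the peptide transporter subunits Tap1 and Tap2, the loading factor Tapbp, the immunoproteasome subunits Psmb8, Psmb9 and Psmb10, and the transactivator Nlrc5. They were taken by symbol, through their Ensembl identifiers, from the 52636 genes counted in the dorsal root ganglia (DRGs) of 16 mice, and all 10 were among the 21371 genes with enough reads to be tested. Each group held 4 mice: Sham-Saline and SNI-Saline without the drug, and Sham-DMI and SNI-DMI with it. All were male C57Bl6/J mice aged 3 to 4 months, with no genetic change named. SNI is tibial spared nerve injury of the left hind leg, in which the other branches of the sciatic nerve are tied and cut, and sham mice had the surgery without the injury. DMI is desipramine, a tricyclic antidepressant that blocks noradrenaline reuptake, injected into the peritoneum over 3 weeks, with 2 doses of 15 mg/kg each day, and the other mice received saline on the same schedule. Treatment is placed 4 weeks after surgery in one account of the study and months after it in another. One library was made from the L3 to L6 DRGs of each mouse.

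MHC class I molecules show peptides from inside the cell to CD8 T cells and engage receptors of natural killer (NK) cells. Proteasomes cut the peptides, TAP carries them into the endoplasmic reticulum, and tapasin holds the empty heavy chain with β2-microglobulin next to TAP until a peptide has bound. Interferons raise most of these genes together, through IRF1 and, for class I promoters, through NLRC5. In a resting ganglion, macrophages, endothelium and glia are known to express class I more strongly than neurons, which gain it under interferon or after injury.

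In GRCm38, 7 of the 10 genes lie in the MHC on chromosome 17. H2-K1 (ENSMUSG00000061232) is at chr17:33996017-34000347 on the minus strand, and Tapbp (ENSMUSG00000024308) at chr17:33915899-33929292 on the plus strand. A compact block follows, with Psmb9 (ENSMUSG00000096727, chr17:34181987-34187764, minus strand), Tap1 (ENSMUSG00000037321, chr17:34187553-34197225, plus strand), Psmb8 (ENSMUSG00000024338, chr17:34197721-34201454, plus strand) and Tap2 (ENSMUSG00000024339, chr17:34203527-34216321, plus strand). H2-D1 (ENSMUSG00000073411) is at chr17:35262730-35267499 on the plus strand. Outside the MHC, B2m (ENSMUSG00000060802) is at chr2:122147686-122153083 on the plus strand, Psmb10 (ENSMUSG00000031897) at chr8:105935735-105938444 on the minus strand, and Nlrc5 (ENSMUSG00000074151) at chr8:94434356-94527272 on the plus strand.

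The promoters of 8 of the 10 genes were matched in RefSeq on GRCm38.p6, and 4 are shown because they represent both arrangements, the class I chains and the start region that Tap1 shares with Psmb9. Each run is the 200 bases before the RefSeq start, 5′ to 3′ on the gene's strand. These starts need not be the ends of the gene spans given above. Those of H2-D1, Tapbp, Psmb8, Psmb9 and Psmb10 lie inside the spans. Those of H2-K1, B2m and Tap1 are at or within a few bases of an end. H2-K1 had 2 listed starts, and its window is that of the start at chr17:34000347. Which motifs are found depends on the start used. The windows are chr17:34000348-34000547 for H2-K1, chr17:35262894-35263093 for H2-D1, chr2:122147487-122147686 for B2m and chr17:34187356-34187555 for Tap1. Capitals mark matches, on either strand, to AANNGAAA (the core bound by interferon regulatory factors), the NF-kB consensus, CCAAT (bound by NF-Y) or TGACG (bound by CREB and ATF proteins, the X2 box of class I promoters).
H2-K1: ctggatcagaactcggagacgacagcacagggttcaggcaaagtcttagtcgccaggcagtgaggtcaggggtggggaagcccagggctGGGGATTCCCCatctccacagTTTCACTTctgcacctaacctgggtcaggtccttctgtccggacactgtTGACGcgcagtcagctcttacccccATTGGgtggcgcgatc
H2-D1: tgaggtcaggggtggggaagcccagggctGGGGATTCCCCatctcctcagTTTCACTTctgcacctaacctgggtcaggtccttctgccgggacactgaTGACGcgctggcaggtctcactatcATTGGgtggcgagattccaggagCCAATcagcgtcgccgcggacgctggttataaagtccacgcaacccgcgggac
B2m: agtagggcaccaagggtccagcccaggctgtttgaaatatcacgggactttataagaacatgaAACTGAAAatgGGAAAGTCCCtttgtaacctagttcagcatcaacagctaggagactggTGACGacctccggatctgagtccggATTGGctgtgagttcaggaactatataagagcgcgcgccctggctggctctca
Tap1: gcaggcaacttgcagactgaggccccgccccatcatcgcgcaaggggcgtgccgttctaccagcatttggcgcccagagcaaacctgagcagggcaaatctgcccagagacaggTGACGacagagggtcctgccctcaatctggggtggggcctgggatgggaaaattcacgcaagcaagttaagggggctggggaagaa

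H2-K1, H2-D1 and B2m all held the interferon regulatory factor core, which was found in 17.2% of the 27025 promoters of this length, the NF-kB consensus, found in 5.84%, and TGACG followed after 10 to 30 bases by ATTGG, found in 0.651%. The last pair is the order of the X2 and Y boxes, in which the NLRC5 complex is known to act. CCAAT, on either strand, was in 5 of the 8 promoters (H2-K1, H2-D1, B2m, Tapbp and Psmb9) and in 30% of all. TGACG was also in 5 of the 8 (H2-K1, H2-D1, B2m, Tap1 and Psmb9) and in 15.8% of all. The Psmb10 window held none of these motifs. The RefSeq starts of Tap1 and Psmb9 lie 225 bases apart on opposite strands, so the same TGACG was counted for both genes. No promoter was printed for Tap2 or Nlrc5. A match describes the letters in the window and does not show that a factor was bound.

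Between 41194238 and 73920332 reads per library fell on genes, 79.56% to 81.17% of read pairs. In the labels the tissue field reads spinal cord, although the cell type is given as dorsal root ganglia. Summed over 8 sensory neuron markers, libraries held 6770 to 8480 CPM (counts scaled to library size), and over 8 markers of central neurons and glia 18.1 to 50.7 CPM, with only 4 of the latter above the filter. The S-numbers in the sample titles fell into 1 block for DMI (17 to 24) and 1 for saline (33 to 40), with SNI and sham consecutive inside each, so anything that followed these numbers cannot be told apart from the groups. The labels do not say what the numbers record. In whole ganglia, a change in the number of cells of a type and a change in RNA per cell cannot be told apart.

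Reads shared with related genes limit some members. Of the 50-base words in H2-K1 transcripts 9.6%, and of those in H2-D1 12.8%, also occur in another gene, mostly other class I heavy chains, so reads could be lost or exchanged among them, whereas B2m, Psmb9, Psmb10 and Nlrc5 had 0.0%. Tap1 and Psmb9 overlap in exons on opposite strands. The library kit keeps strand, but the strand setting of the counting is not given in the sources used here, so reads of these 2 genes can be told apart only if strand was used.

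The ganglia of sham mice given saline held very unequal amounts of these transcripts. In Sham-Saline, per kilobase of exon, B2m stood at 215 ± 35.5 CPM (SD, n = 4), H2-D1 at 84.8 ± 10.7 and H2-K1 at 42.9 ± 7.39. Tapbp at 23.1 ± 0.605 and Psmb10 at 19.9 ± 1.68 formed a middle pair. Tap2 reached 5.84 ± 0.331, Psmb8 3.73 ± 0.499, Tap1 2.74 ± 0.498, Psmb9 1.71 ± 0.133 and Nlrc5 1.02 ± 0.13. On this scale the chains of the class I molecule were the highest and the transactivator the lowest. The exon length is the union over all annotated transcripts, such as 860 bases for B2m and 3660 for Psmb9, so the order depends on the annotation. In CPM not divided by length, H2-D1 (219) was above B2m (185), and Psmb9 (6.25) was below Nlrc5 (8.64). Only Psmb8 and Tap1 overlapped between neighbours in the order per kilobase, and all the other neighbouring genes were apart in the 4 mice.

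The first question was what nerve injury did to the machinery under saline. All 10 log2 fold changes of SNI-Saline over Sham-Saline were above 0, as were 49.9% of all genes, with a median of 0.63 against about 0 over all genes tested. In edgeR's quasi-likelihood test, 6 of the 10 rose at a Benjamini-Hochberg adjusted p under 0.1 (B2m, Tap1, Tap2, Psmb8, Psmb9 and Psmb10) and 0 fell, where 5.85% of all genes rose and 6.18% fell. By the rule for differentially expressed genes (DEGs: a log2 fold change of 0.32 or more in either direction, with a nominal p under 0.05), 9 of the 10 were higher, against 3.64% of all genes, with Tapbp the exception. Only Psmb8 separated the groups, which 7.67% of all genes did in this direction. The rise was uneven between mice. In most members SNI-Saline mice 1 and 2 lay far above sham, while mice 3 and 4 lay at or slightly above it.

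**Figure D1:**
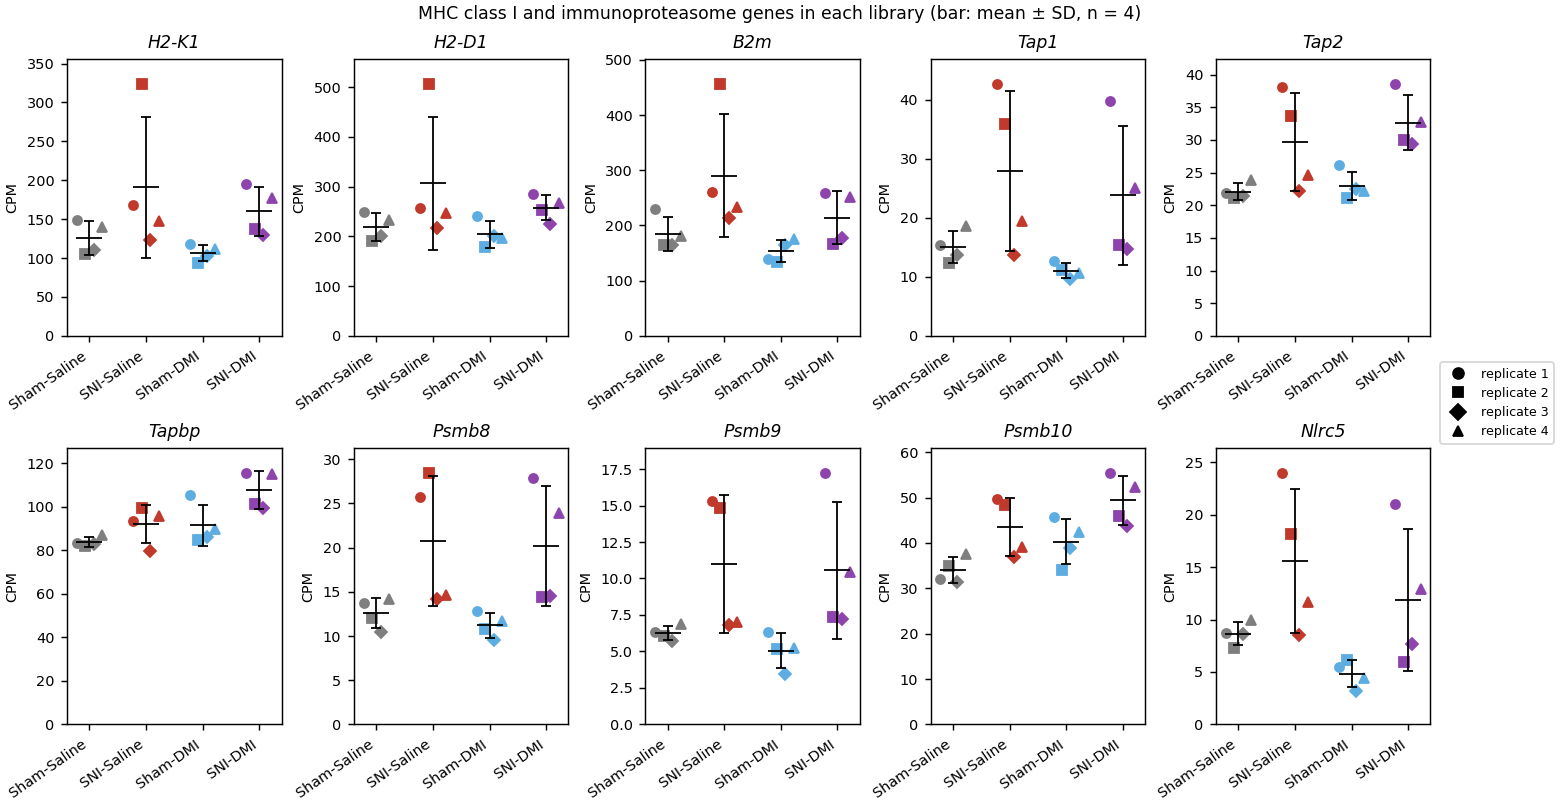
CPM of each of the 10 genes in the 16 libraries, by group on the horizontal axis. Symbols mark the replicate number and bars the mean ± SD (n = 4). In SNI-Saline 2 of the 4 mice carry most of the rise, for Tap1 at 42.63 and 35.82 CPM against 13.77 and 19.44 in the other mice, and in SNI-DMI mice 1 and 4 stand highest.

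Of the class I chains, B2m, which every class I molecule needs to leave the endoplasmic reticulum, was at 229.2, 165.4, 163.8 and 181.7 CPM in the Sham-Saline mice and at 260.0, 456.0, 212.8 and 233.6 CPM in the SNI-Saline mice. The groups overlapped only through Sham-Saline mouse 1, and SNI-Saline mouse 2 was far above the rest. B2m rose by 0.65 ± 0.20 on the log2 scale (SE, 1.57-fold, edgeR adjusted p = 0.062). H2-K1, a classical heavy chain, was at 149.5, 105.4, 110.0 and 139.6 CPM in sham and at 168.4, 323.4, 123.6 and 147.7 CPM after injury, where mouse 2 again stood alone and mice 3 and 4 lay within the sham range. Its difference of 0.60 ± 0.22 had an adjusted p of 0.108 in edgeR. H2-D1, the other classical heavy chain, ran from 190.4 to 249.7 CPM in sham and from 216.0 to 505.7 CPM after injury, with 3 of the 4 injured mice at or below 256.6 CPM. Its difference was 0.49 ± 0.19 (edgeR adjusted p = 0.132). Without SNI-Saline mouse 2 the log2 differences of B2m, H2-K1 and H2-D1 dropped to 0.36, 0.23 and 0.15.

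The TAP transporter genes were high in both SNI-Saline mice 1 and 2, while the class I chains stood far out in mouse 2 only. Tap1, its first subunit, was at 15.36, 12.28, 13.73 and 18.63 CPM in Sham-Saline and at 42.63, 35.82, 13.77 and 19.44 CPM in SNI-Saline. Mice 1 and 2 were well above any sham mouse, mouse 4 was just above sham and mouse 3 was within it. Tap1 rose by 0.90 ± 0.31 on the log2 scale (1.86-fold, edgeR adjusted p = 0.0921). Tap2, the other subunit, was at 21.16 to 23.92 CPM in sham and at 38.03, 33.72, 22.17 and 24.57 CPM after injury, a rise of 0.42 ± 0.13 (1.34-fold, edgeR adjusted p = 0.0682). Tapbp, which encodes tapasin, was at 82.06 to 87.05 CPM in sham and 79.74 to 99.73 CPM after injury. It had the smallest difference of the 10 genes, at 0.14 ± 0.08 (edgeR adjusted p = 0.292).

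The immunoproteasome replaces the catalytic subunits of the standard proteasome with PSMB8, PSMB9 and PSMB10, which shifts cleavage towards peptides that bind class I. Psmb8 was at 13.7, 12.07, 10.45 and 14.16 CPM in Sham-Saline and at 25.71, 28.46, 14.18 and 14.67 CPM in SNI-Saline, so the groups were apart by the narrowest of margins, between 14.16 and 14.18 CPM. It rose by 0.72 ± 0.23 (1.65-fold, edgeR adjusted p = 0.0698). Psmb9 was at 5.702 to 6.868 CPM in sham and at 15.31, 14.84, 6.779 and 7.028 CPM after injury, with the same 2 mice high, and rose by 0.81 ± 0.29 (1.76-fold, edgeR adjusted p = 0.0939). Psmb10 was at 31.35 to 37.54 CPM in sham and at 49.62, 48.41, 36.8 and 39.13 CPM after injury, and rose by 0.36 ± 0.11 (1.28-fold, edgeR adjusted p = 0.0567), the lowest adjusted p of the 10 genes.

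Nlrc5, whose product sits on class I promoters, was at 8.695, 7.254, 8.632 and 9.962 CPM in sham and at 23.99, 18.11, 8.546 and 11.63 CPM after injury. Mouse 3 lay within the sham range. The difference of 0.85 ± 0.33 was the largest after that of Tap1, with an edgeR adjusted p of 0.133.

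These injury calls depended on single mice. The count of members called went from 6 to 0 without SNI-Saline mouse 1, without SNI-Saline mouse 2 or without Sham-Saline mouse 3, to 1 without Sham-Saline mouse 1 or 2, to 2 without Sham-Saline mouse 4, and to 10 without SNI-Saline mouse 3. With each library's trend on GC content and exon length removed, B2m alone stayed under 0.1, and with the replicate block added Psmb8 alone did, where B2m had an adjusted p of 0.124. The calls over all genes fell too with the trend removed, from 1250 higher and 1321 lower to 524 and 520. They were 441 and 307 without SNI-Saline mouse 1, 452 and 319 without SNI-Saline mouse 2, and 344 and 338 without Sham-Saline mouse 3. Without Sham-Saline mouse 1, 2 or 4 they were 774 and 483, 1284 and 1363, and 681 and 537. Without SNI-Saline mouse 3 they were 1433 and 1292. The median log2 fold change of the members was between 0.56 and 0.64 under the alternatives that kept all 4 mice of each group, and between 0.36 (without SNI-Saline mouse 2) and 0.77 (without SNI-Saline mouse 3) with 1 library left out.

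The spread within the injured mice had 2 forms. In SNI-Saline mouse 1, Tap1 was at 2.84 times the Sham-Saline mean, Nlrc5 at 2.78 times and Psmb9 at 2.45 times, but H2-K1 was at 1.34 times, H2-D1 at 1.17 times and B2m at 1.41 times. In SNI-Saline mouse 2, H2-K1 was at 2.56 times the Sham-Saline mean, B2m at 2.46 times, H2-D1 at 2.31 times, Tap1 at 2.39 times and Nlrc5 at 2.1 times. Tap2 (1.72 and 1.53 times), Psmb10 (1.46 and 1.43 times) and Tapbp (1.12 and 1.19 times) were less raised in mice 1 and 2. Thus Tap1, Psmb8, Psmb9 and Nlrc5 were at 2 times the sham mean or more in both mice, and the class I chains in mouse 2 only. Averaged over the 10 genes, the deviation of each library from the mean of the 16 libraries was 0.61, 0.82, -0.15 and 0.07 on the log2 scale in SNI-Saline and -0.10, -0.31, -0.30 and -0.05 in Sham-Saline.

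**Figure D2:**
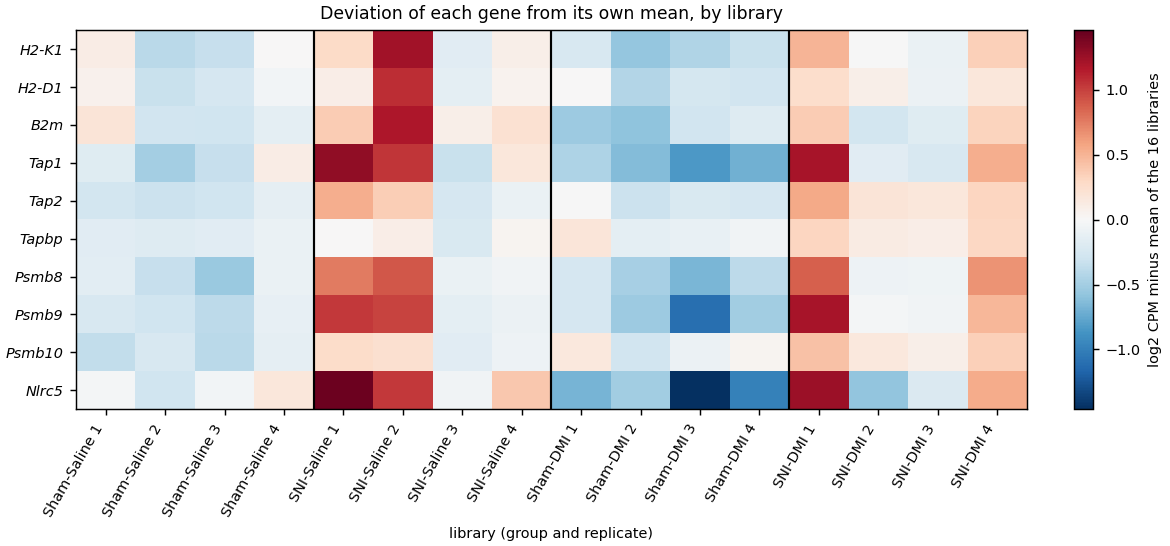
Heat map of log2 CPM minus the gene's own mean over the 16 libraries, with genes in rows, libraries in columns by group and replicate, red for above and blue for below the mean. All 10 genes are above their mean in SNI-Saline mice 1 and 2 and in SNI-DMI mice 1 and 4, and in SNI-Saline mouse 1 the heavy chains are only slightly so.

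The same question was put to the mice that received DMI. All 10 log2 fold changes of SNI-DMI over Sham-DMI were above 0 (50.2% of all genes), with a median of 0.55 against about 0 over all genes. No member passed an adjusted p of 0.1 in edgeR, where 0.374% of all genes rose, while 9 had an unadjusted p under 0.05, as did 12.1% of all genes. The DEG rule took 7, against 4.07% of all genes. In 5 genes (H2-K1, Tap1, Tap2, Psmb8 and Psmb9) every injured mouse was above every sham mouse, which held for 2.89% of all genes. DESeq2 called 4 members and edgeR without a filter on low counts 5, with Tap2, Psmb8, Psmb9 and Nlrc5 in both. Over all genes these fits called 340 of 38180 and 277 of 38220 higher, against 80 of 21371 in the main fit. In edgeR the count was 5 without Sham-DMI mouse 1, 3 without SNI-DMI mouse 2 and 4 without SNI-DMI mouse 3. Over all genes 316 of 21721, 187 of 21670 and 210 of 21711 were higher in these fits.

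Tap1 was at 12.67, 11.12, 9.69 and 10.64 CPM in Sham-DMI and at 39.87, 15.47, 14.68 and 25.13 CPM in SNI-DMI, so all 4 injured mice were above sham, mouse 1 by the most. The difference was 1.11 ± 0.32 on the log2 scale (2.15-fold, edgeR adjusted p = 0.183). Nlrc5 had the largest difference of the 10 genes. It was at 5.516, 6.189, 3.197 and 4.446 CPM in Sham-DMI and at 21, 5.926, 7.669 and 12.93 CPM in SNI-DMI, with injured mouse 2 inside the sham range, and differed by 1.28 ± 0.34 (2.43-fold, edgeR adjusted p = 0.154).

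Of the immunoproteasome genes, Psmb9 was at 3.471 to 6.319 CPM in Sham-DMI and at 17.24, 7.351, 7.224 and 10.43 CPM in SNI-DMI, a difference of 1.05 ± 0.29 (edgeR adjusted p = 0.164). Psmb8 was at 9.54 to 12.86 CPM and at 27.87, 14.41, 14.51 and 23.92 CPM, a difference of 0.84 ± 0.23 (edgeR adjusted p = 0.16). Both genes were above sham in every injured mouse and highest in mice 1 and 4. Psmb10, at 34.04 to 45.68 CPM and 43.8 to 55.45 CPM, overlapped and differed by 0.30 ± 0.11 (edgeR adjusted p = 0.289).

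The class I chains had smaller differences than Tap1, though genes were not tested against each other. H2-K1 was at 93.87 to 117.8 CPM in Sham-DMI and at 194.9, 137.8, 129.7 and 177.1 CPM in SNI-DMI, with the groups apart and a difference of 0.59 ± 0.22 (edgeR adjusted p = 0.301). B2m was at 133.7 to 176.1 CPM and 166.9 to 259.2 CPM, and overlapped (0.48 ± 0.20, edgeR adjusted p = 0.35). H2-D1 was at 177.6 to 240.9 CPM and 225.0 to 285.6 CPM (0.34 ± 0.19, edgeR adjusted p = 0.495). No single injured mouse stood out in the heavy chains as SNI-Saline mouse 2 had. Tap2, at 21.09 to 26.11 CPM and 29.44 to 38.51 CPM, was apart with a difference of 0.51 ± 0.13 (edgeR adjusted p = 0.145), and Tapbp, at 84.64 to 105.3 CPM and 99.43 to 115.7 CPM, overlapped with 0.24 ± 0.08 (edgeR adjusted p = 0.224).

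**Figure D3:**
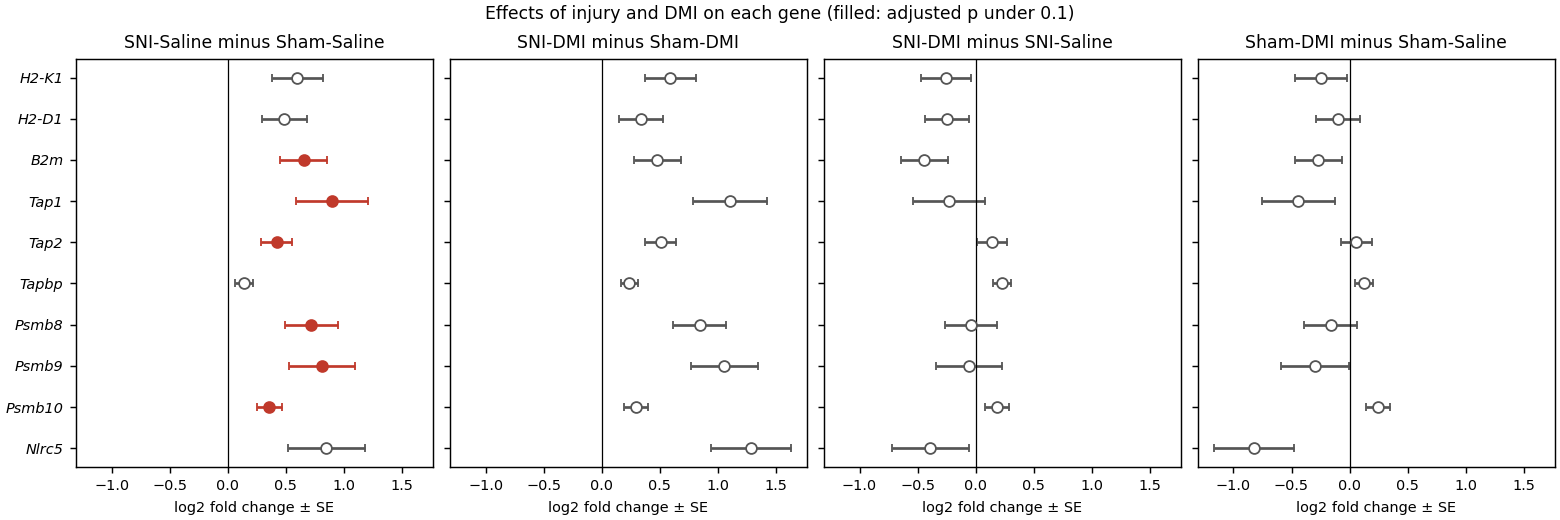
Log2 fold change ± SE of each of the 10 genes in the 4 comparisons named above the panels, from edgeR on all 16 libraries. Filled red points have an adjusted p under 0.1. All points lie above 0 in both injury comparisons, and in both DMI comparisons they lie on both sides of 0.

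The next question was whether DMI lowered these genes in injured mice. In SNI-DMI over SNI-Saline, 0 of the 10 members passed an adjusted p of 0.1 in edgeR (2.93% of all genes did). An unadjusted p under 0.05 was found for 2 (18.5% of all genes). DESeq2 called 1 member (Tapbp, higher), and called 839 of 38180 genes higher. Differences were above 0 in 3 genes (49.0% of all genes) and below 0 in 7, with a median of -0.14 on the log2 scale. B2m had the largest, at -0.44 ± 0.20 (0.736-fold, edgeR adjusted p = 0.246), and was the only member that met the DEG rule for lower genes, which 3.8% of all genes met. SNI-DMI mice had 259.2, 166.9, 178.1 and 251.9 CPM of B2m and SNI-Saline mice 212.8 to 456.0 CPM, so the groups overlapped. Without SNI-Saline mouse 2 the B2m difference was -0.12.

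None of the other differences of SNI-DMI from SNI-Saline passed the test. H2-K1 differed by -0.26 ± 0.22, H2-D1 by -0.25 ± 0.19, Tap1 by -0.23 ± 0.31 and Nlrc5 by -0.39 ± 0.33. Psmb8 differed by -0.04 ± 0.23 and Psmb9 by -0.06 ± 0.28, and these errors leave room for changes in either direction. Tapbp stood at 0.23 ± 0.08 (edgeR adjusted p = 0.129), Psmb10 at 0.18 ± 0.11 and Tap2 at 0.14 ± 0.13. Leaving out SNI-Saline mouse 2 turned the median over the 10 genes from -0.14 to 0.14, and without SNI-DMI mouse 1 it was -0.32.

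In sham mice no member passed the test for DMI, although many other genes did. In Sham-DMI over Sham-Saline 23.4% of all genes passed an adjusted p of 0.1 in edgeR, against 0 of the 10 members. An unadjusted p under 0.05 was found for 2 (30.6% of all genes). DESeq2 called 1 member (Psmb10, higher), and called 2983 of 38180 genes higher. The median log2 difference was -0.21, with 3 genes above 0 (46.7% of all genes) and 7 below. Nlrc5 was the one member whose groups were apart, at 7.254 to 9.962 CPM with saline and 3.197 to 6.189 CPM with DMI. All 4 DMI mice were lower, a separation that 8.51% of all genes showed in this direction. The Nlrc5 difference was -0.82 ± 0.34 (0.565-fold, edgeR adjusted p = 0.11), and it was past the threshold in 5 of 8 alternative fits, with adjusted p from 0.0237 to 0.152. It also met the DEG rule, as did 7.57% of all genes in this direction.

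Psmb10 lay on the other side in sham mice, at 31.35 to 37.54 CPM with saline and 34.04 to 45.68 CPM with DMI (0.24 ± 0.11, edgeR adjusted p = 0.129, past the threshold in 4 of 8 alternative fits). Tap1 differed by -0.44 ± 0.32, Psmb9 by -0.30 ± 0.29, B2m by -0.27 ± 0.20 and H2-K1 by -0.25 ± 0.22, each overlapping. Psmb8 at -0.16 ± 0.23, H2-D1 at -0.10 ± 0.19, Tap2 at 0.06 ± 0.13 and Tapbp at 0.13 ± 0.08 were closer to 0. Each DMI comparison shares a group of libraries with each injury comparison.

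Whether the injury effect differed between DMI and saline was tested by the interaction. Over the 10 genes the interaction ran from -0.17 (B2m) to 0.43 (Nlrc5) on the log2 scale, with a median of 0.09 and edgeR adjusted p-values of 0.828 to 0.996. No member, and 0.0% of all genes, passed an adjusted p of 0.1. No member had an unadjusted p under 0.05, against 7.92% of all genes, and DESeq2 called 0 members. The errors of the interaction are larger than those of each effect, so a moderate difference between the effects was not detectable.

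Each immunoproteasome subunit takes the place of a constitutive one, PSMB8 of PSMB5, PSMB9 of PSMB6 and PSMB10 of PSMB7, so their ratio within a library describes the mix without depending on library scaling. The 3 ratios were compared in 4 contrasts by exact two-sided permutation tests of 4 mice against 4, whose smallest possible p is 0.0286, with adjustment over the 12 tests. Psmb8 CPM was 0.211, 0.164, 0.159 and 0.197 of Psmb5 CPM in Sham-Saline, and 0.308, 0.333, 0.183 and 0.179 in SNI-Saline. The same 2 injured mice were high and the other pair lay within the sham range. The log2 ratio differed by 0.41 ± 0.26 (SE, exact permutation p = 0.229, adjusted p = 0.343).

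With DMI in sham mice the Psmb8 to Psmb5 ratio was lower, at 0.133, 0.134, 0.104 and 0.122, below every saline mouse. The log2 difference was -0.56 ± 0.13 (exact permutation p = 0.0286, adjusted p = 0.0857). Psmb9 was 0.0428, 0.0388, 0.0398 and 0.0443 of Psmb6 in Sham-Saline and 0.0322, 0.0308, 0.0185 and 0.0263 in Sham-DMI, again without overlap (-0.65 ± 0.19, exact permutation p = 0.0286, adjusted p = 0.0857). The denominators moved here. Psmb5 rose by 0.40 (edgeR adjusted p = 0.00176) and Psmb6 by 0.32 (edgeR adjusted p = 0.00212) with DMI in sham mice, while Psmb8 at -0.16 and Psmb9 at -0.30 did not pass. Of the 50-base words of Psmb5, 54.1% also occur in another gene, so its level is uncertain.

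Among the mice with DMI, injury separated both ratios. SNI-DMI mice had Psmb8 at 0.295, 0.15, 0.152 and 0.256 of Psmb5, all above the Sham-DMI mice (0.73 ± 0.27 on the log2 scale, exact permutation p = 0.0286, adjusted p = 0.0857). Psmb9 was at 0.0891, 0.0381, 0.0381 and 0.0544 of Psmb6, also all above (0.97 ± 0.34, exact permutation p = 0.0286, adjusted p = 0.0857). Neither ratio differed detectably between SNI-DMI and SNI-Saline, with -0.24 ± 0.35 for Psmb8 to Psmb5 (exact permutation p = 0.514) and -0.16 ± 0.41 for Psmb9 to Psmb6 (exact permutation p = 0.8). Psmb10 showed no such separation. With DMI in sham mice its ratio to Psmb7 differed by 0.09 ± 0.12 (exact permutation p = 0.571, adjusted p = 0.623). Its ratio after injury differed by 0.25 ± 0.12 under saline (exact permutation p = 0.0857, adjusted p = 0.171) and by 0.39 ± 0.12 under DMI (exact permutation p = 0.0571, adjusted p = 0.137).

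**Figure D4:**
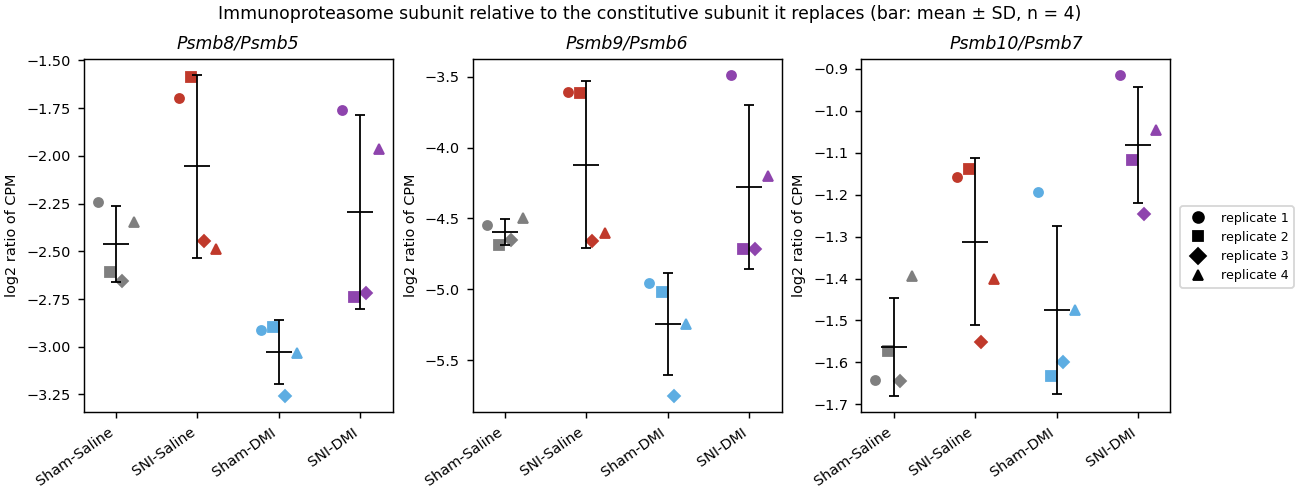
Log2 ratio of CPM of each immunoproteasome subunit to the constitutive subunit it replaces, by library and group, with bars for the mean ± SD (n = 4). Sham-DMI mice lie below all other mice for Psmb8/Psmb5 and Psmb9/Psmb6, and SNI-DMI mice lie above Sham-DMI mice in both.

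Other proteasome genes were taken from a list of partners of the immunoproteasome. Of the 7 genes in this list (Psme1, Psme2, Psme3, Psmb5, Psmb6, Psmb7 and Pomp), 4 rose with injury under saline, where 5.85% of all genes rose. These were Pomp, the assembly chaperone, by 0.34 (edgeR adjusted p = 0.0098), Psmb6 by 0.24 (0.0211), Psmb5 by 0.25 (0.0238) and Psme2, of the PA28 activator, by 0.30 (0.0454). In sham mice DMI raised 5 of the 7, where 11.6% of all genes rose, with Pomp by 0.39 (edgeR adjusted p = 0.00196), Psmb7 by 0.15 (0.0384) and Psme2 by 0.28 (0.0302) beside Psmb5 and Psmb6. In injured mice DMI raised 1, Psmb5, by 0.21 (edgeR adjusted p = 0.0949), against 1.32% of all genes. Injury under DMI called 0, and Psme1 at 0.40 had an adjusted p of 0.159. With the GC and length trend removed, the 5 calls of DMI in sham mice held, and Psmb5 and Psme2 lost the call of injury (adjusted p = 0.111 and 0.145) and Psmb5 that of DMI in injured mice (0.298).

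Of the 15 other class I heavy chains, 13 were tested, and 3 rose with injury under saline, where 5.85% of all genes rose. These were H2-T22 (0.39, edgeR adjusted p = 0.048), H2-T23 (0.69, 0.0872), which encodes Qa-1, the ligand of an inhibitory NK receptor, and H2-Q4 (0.88, 0.0904). H2-T23 was at 11.2 to 16.4 CPM in Sham-Saline and 15.2 to 29.7 CPM in SNI-Saline, and H2-Q4 at 13.7 to 21.4 and 16.8 to 60.6 CPM. DMI lowered 4 of the 13 in sham mice, where 11.9% of all genes fell: H2-Q6 (-1.03, edgeR adjusted p = 0.0587), H2-Q7 (-1.12, 0.0743), H2-Q4 (-0.81, 0.0841) and H2-T24 (-0.46, 0.0841). H2-Q4 was at 8.94 to 11.3 CPM in Sham-DMI, below every Sham-Saline mouse, and H2-Q6 at 2.87 to 3.36 against 4.52 to 7.96 CPM. With the GC and length trend removed, H2-T23 (0.60, adjusted p = 0.163) and H2-Q4 (0.77, adjusted p = 0.166) lost the call of injury at a similar size, and the 4 calls of DMI in sham mice held. With 1 library left out, the calls of DMI in sham mice held in 11 of 16 fits for H2-Q6 and H2-Q7, 8 for H2-Q4 and 7 for H2-T24. None of the 13 was called for DMI in injured mice or for injury under DMI, where H2-T23 stood at 0.93 (edgeR adjusted p = 0.137). For injury under DMI the DEG rule took 5 of the 13 as higher (4.07% of all genes). In 5 every injured mouse was above every sham mouse (2.89% of all genes). With DMI in injured mice 3 met the DEG rule for lower genes (3.8% of all genes). In injured mice the DMI differences were -0.98 ± 0.35 for H2-Q6 (edgeR adjusted p = 0.151), -0.91 ± 0.39 for H2-Q7 (0.225) and -0.65 ± 0.30 for H2-Q4 (0.26). SNI-Saline mouse 2 stood far above its group here, at 23.34 CPM of H2-Q6, 18.46 of H2-Q7 and 60.6 of H2-Q4. The other SNI-Saline mice were at or below 7.428, 5.073 and 27.45 CPM, and SNI-DMI mice reached 7.6, 6.69 and 26.7 CPM. Likeness to the differences in sham mice was not tested. H2-Q6 shares 32.0% of its 50-base words with other genes, H2-T22 34.5%, H2-Q7 26.4% and H2-Q4 21.8%, so reads cannot be assigned among them with certainty. The 5 class I-like genes (Cd1d1, Mr1, Fcgrt, Hfe and Azgp1) gave 0 calls in all 4 comparisons.

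Among 11 regulators, 1 rose with injury under saline, close to the 5.85% of all genes that did. Irf1, a transcription factor induced by interferon γ, was at 18.4 to 22.4 CPM in sham and 23.6 to 52.7 CPM after injury, without overlap, and rose by 0.73 ± 0.23 (edgeR adjusted p = 0.0636, or 0.112 with the GC and length trend removed). With DMI in sham mice Irf1 differed by -0.002 on the log2 scale (edgeR adjusted p = 0.996), and 1 of the 11 fell (11.9% of all genes), Nfya, a subunit of NF-Y, by 0.23 (edgeR adjusted p = 0.0358), a call lost with the GC and length trend removed (adjusted p = 0.146). No regulator was called in the other comparisons.

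Among the 8 interferon receptors and kinases, no called gene had a log2 difference of 0.20 or more in size. Injury under saline gave 1 higher, Ifngr1 at 0.16 (edgeR adjusted p = 0.0843), and 1 lower, Ifnar1 at -0.17 (0.0669), where 5.85% of all genes rose and 6.18% fell. DMI in sham mice gave Ifngr2 higher at 0.16 (edgeR adjusted p = 0.086) and Jak2 at -0.19 (0.038) and Ifnar1 at -0.14 (0.0647) lower, so 1 of 8 rose and 2 of 8 fell, against 11.6% and 11.9% of all genes. Of the 6 genes for loading and trimming, only the chaperone Calr rose with DMI in sham (0.17, edgeR adjusted p = 0.0286) and injured mice (0.18, 0.0942). In these comparisons 11.6% and 1.32% of all genes rose. Uggt1, which checks glycoprotein folding, fell with injury by 0.21 (edgeR adjusted p = 0.0491) and with DMI in sham mice by 0.19 (0.0408), and Erap1, the trimming peptidase, fell with DMI in sham mice by 0.36 (0.0332). So 1 of 6 fell with injury and 2 of 6 with DMI in sham mice, against 6.18% and 11.9% of all genes. With the GC and length trend removed, the calls of Uggt1, Erap1, Jak2 and Ifngr1, of Ifnar1 for DMI and of Calr in injured mice were lost.

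On the receiving side, 3 of 6 receptor genes of T and NK cells had enough reads to test. DMI in sham mice lowered the NK receptor genes Klrd1 (-2.70, edgeR adjusted p = 0.0125) and Klrk1 (-1.69, 0.039), from 0.181 ± 0.0894 to 0.0281 ± 0.0165 CPM and from 0.558 ± 0.177 to 0.171 ± 0.0541 CPM (SD, n = 4). So 2 of the 3 tested genes fell, against 11.9% of all genes, and on few reads. Klrk1 lost the call with the GC and length trend removed (adjusted p = 0.218). None of the 3 was called in the other comparisons. For injury under DMI all 3 met the DEG rule for higher genes (4.07% of all genes), at 1.94 to 2.32 on the log2 scale. Their groups overlapped. The interaction met the rule in 2 of the 3, as it did in 478 of 21371 genes in this direction.

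Over the 16 libraries the 10 genes varied together to different degrees. Across the 45 pairs, Pearson's r of log2 CPM had a median of 0.772, from 0.346 for B2m with Tapbp to 0.972 for Psmb8 with Psmb9. With group means removed the median was 0.715. Psmb8 followed the mean of the other members most closely (r = 0.98) and Tapbp least (0.661). The libraries share the effects of the groups, so these values are a description. Outside the members, among 15740 genes, the pattern most like the mean of the 10 was that of H2-T23 (0.955), followed by Hk3 (0.938), Bst2 (0.937), which encodes tetherin, Aif1 (0.932), a macrophage gene, and Xaf1 (0.925). With group means removed the first were H2-T23 (0.935), Irf8 (0.907), a transcription factor of myeloid cells, and H2-Q4 (0.891), followed by H2-T22 and Hk3 (both 0.885).

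Immune cell markers moved with part of the pattern. The summed level of 8 macrophage markers was 80.1, 90.3, 86.9 and 92.9 CPM in Sham-Saline and 93.7, 161, 113 and 96.8 CPM in SNI-Saline, and 3 of the 8 (Cd68, Aif1 and C1qa) rose with injury, against 5.85% of all genes. Of the markers of resident macrophages, Mrc1 differed by 0.06 (edgeR adjusted p = 0.85) and Cd163 by -0.30 (edgeR adjusted p = 0.201) on the log2 scale, and the median over the 8 was 0.39. SNI-Saline mouse 2, the mouse with the high class I chains, had the highest sum, but mouse 1, with high Tap1 and Nlrc5, was just above sham, and mouse 3, the lowest of the group in all 10 members, had the second highest. In SNI-DMI the sums were 143, 89.5, 78.5 and 118 CPM, highest in mice 1 and 4, in which the mean deviation of the members was highest too (0.69, -0.06, -0.06 and 0.40 on the log2 scale). Sham-DMI mice had 64.2 to 85.2 CPM.

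The summed level of 9 T and NK cell markers was low throughout, at 2.07 to 3.77 CPM in Sham-Saline, 3.32, 6.65, 3.41 and 3.39 CPM in SNI-Saline, 1.43 to 2.25 CPM in Sham-DMI and 5.35, 2.94, 1.91 and 2.67 CPM in SNI-DMI, and 0 of the 9 were called in any comparison. The 6 neutrophil markers summed to 8.32 to 30 CPM in Sham-Saline and 12.5 to 38.8 CPM in SNI-Saline, with SNI-Saline mouse 2 again the highest, and to 3.02 to 13 and 3.71 to 10.4 CPM with DMI. With DMI 4 of the 6 fell in sham mice (11.9% of all genes) and 2 in injured mice (344 of 21371 genes). In both injury comparisons 0 of the 6 were called. None of these lists had a gene at 0 throughout a group. The part of these cells in the levels of the 10 genes was not tested.

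**Figure D5:**
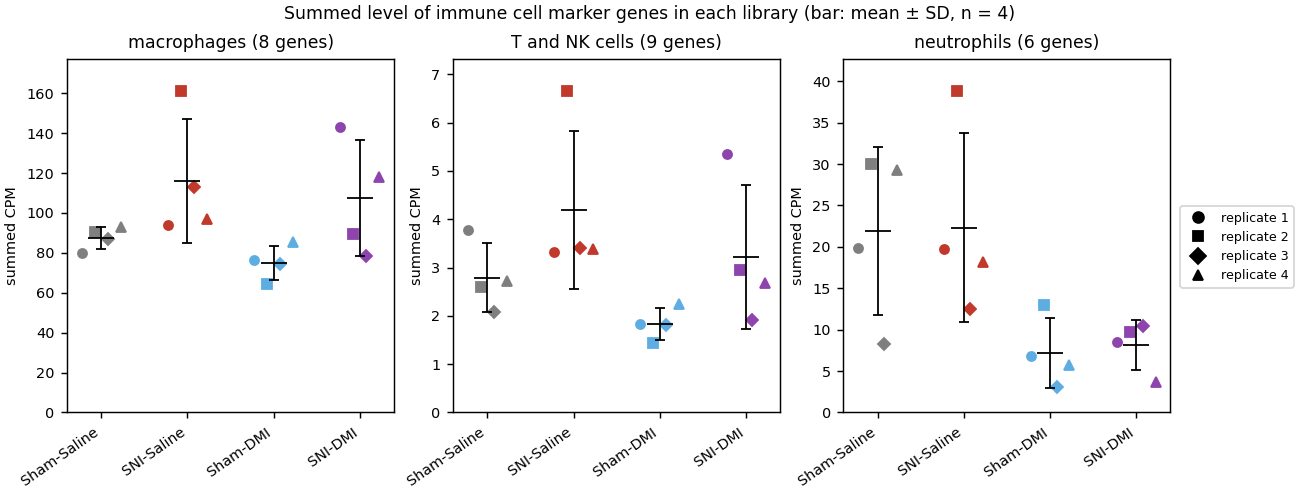
Summed CPM of marker genes of macrophages, of T and NK cells and of neutrophils in each library, by group, with symbols for the replicate number and bars for the mean ± SD (n = 4). SNI-Saline mouse 2 is the highest in each panel (161, 6.65 and 38.8 CPM), while SNI-Saline mouse 1 lies close to sham for macrophages, at 93.7 CPM.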

How the data were processed

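RNA from the L3 to L6 DRGs of 16 mice, 1 mouse per library, was sequenced as stranded poly(A) libraries. The authors aligned the reads to mm10, with HISAT2 and HTSeq named in the submitters' processing notes, and deposited whole-number counts per Ensembl gene without normalization. The annotation release and strand setting are not given in the sources used here. The lines of unassigned reads that close each file were left out. Symbols and positions came from GENCODE M21 on GRCm38 (52489 of 52636 genes matched) and promoters from RefSeq.

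Groups came from the sample titles. Counts were fitted with edgeR 4.0.16 in R 4.3.3 (filterByExpr, TMM, glmQLFit with 1 coefficient per group on all 16 libraries, glmQLFTest) with Benjamini-Hochberg adjustment over the 21371 genes tested and a threshold of 0.1. SE is the log2 fold change divided by the root of F, and CPM uses TMM-scaled library sizes. Log2 CPM had a prior count of 2. Alternatives used DESeq2 1.42.0, no filter, at least 10 counts in every library, upper-quartile scaling, the libraries of a contrast alone, a replicate block, smooth GC and length trends removed (mgcv 1.9.3, basis size 8), and each library left out in turn. Only the main edgeR fit of injury under saline was tested on simulated data. The mean chi-square per gene between replicates was 10.4 to 44.3 (about 1 under counting error), over genes above a minimum of reads in the pair. Averaged over those genes, the spread between mice thus exceeded counting error. The mean does not describe genes with few reads, such as Klrd1 and Klrk1.

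All 10 members are named. Of each other list and comparison, the up to 4 called genes of smallest p are named, plus the proteasome partners and the 5 genes of most similar pattern (at least 1 CPM on average). H2-T23 under DMI, Cd163, Mrc1 and the H2-Q genes in injured mice were named after their values were seen, as were the motifs. Members and lists were chosen with earlier results of these data known. A regulator in the lists is not reported here. Lilrb3 had no row under its symbol and was not analysed here. Ratios were tested with scipy 1.17.1 under python 3.11.15.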

Additional observations from a re-analysis of the deposited data

Results flagged for a closer look

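H2-D1 in SNI-Saline mouse 2, at 505.7 CPM, stood far from the other 3 mice of its group, which were at 216.0 to 256.6 CPM. Its gap to the nearest of them was above Dixon's 95% critical value for 4 samples. It was the 1 case in 40 groups tested (10 genes in 4 groups), and chance alone flags about 1 in 20 groups. H2-K1 at 323.4 CPM and B2m at 456.0 CPM were also highest in that mouse.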

How the results depend on the processing

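The count of members with an adjusted p under 0.1 for injury under saline was 6, and 0 to 10 with 1 library left out. It was 1 with the GC content and exon length trend removed, with or without the replicate block, and 6 to 9 under the other 6 alternatives. For DMI in injured mice the count was 0, 1 with DESeq2, and 0 to 1 with 1 library left out (1 without SNI-Saline mouse 2 or Sham-DMI mouse 1). For DMI in sham mice it was 0, but 2 without a filter, 1 with at least 10 counts in every library, 1 with DESeq2, 3 with the contrast's libraries alone, 2 with the replicate block and 1 with the block and the trend removed, and 0 to 2 with 1 library left out (2 without Sham-DMI mouse 2, and 1 without SNI-Saline mouse 1 or 3 or SNI-DMI mouse 1 or 2). For injury under DMI it was 0, but 5 without a filter, 4 with DESeq2, 1 with the replicate block and 1 with the block and the trend removed, and 0 to 5 with 1 library left out. The interaction count was 0 throughout. The counts over all genes moved between these fits too. The cause of these shifts was not tested.

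Leaving out 1 library turned the sign of differences near 0 for DMI in injured mice: H2-D1 (-0.39 to 0.12), H2-K1 (-0.42 to 0.14), Psmb8 (-0.22 to 0.17), Psmb9 (-0.39 to 0.16), Tap1 (-0.59 to 0.058) and the median (-0.32 to 0.14). For the interaction it turned B2m (-0.30 to 0.13), H2-D1 (-0.29 to 0.20), H2-K1 (-0.17 to 0.37), Psmb10 (-0.14 to 0.002), Psmb8 (-0.078 to 0.31), Psmb9 (-0.11 to 0.44), Tap1 (-0.16 to 0.48), Tap2 (-0.035 to 0.22) and the median (-0.12 to 0.26). The H2-K1 interaction was 0.005 with the replicate block. The median for injury under saline was 0.36 to 0.77 with 1 library left out.

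Of the other pathway calls for injury, those of Pomp, Psmb5 and Psmb6 were kept in 16 of 16 fits with 1 library left out, H2-T22 and Psme2 in 12, Irf1 in 11, H2-T23 in 10 and H2-Q4 in 9.

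Replicate numbers gave no pairing of mice across groups, since same-numbered deviations correlated at -0.081 to 0.184, and mice correlated best with their own number in 4 of 16 cases. With 4 mice a group, the spread between mice limits what could be detected.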
